A study of Mus musculus with 10 samples.

Results

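The calcineurin and NFAT genes encode the calcium-activated phosphatase calcineurin, the transcription factors it acts on, the RCAN proteins that bind and regulate it, and GSK3B, a kinase that opposes it. They were chosen by gene symbol. They are the catalytic subunit genes Ppp3ca and Ppp3cb, the regulatory subunit gene Ppp3r1, the NFAT genes Nfatc1, Nfatc2, Nfatc3 and Nfat5, the regulator genes Rcan1 and Rcan3, and Gsk3b. All 10 symbols were found, on 1 row each, among the 22923 gene symbols of the deposited tables.

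In lymphocytes, an antigen receptor signal opens calcium channels, calcium and calmodulin activate calcineurin, and calcineurin removes phosphates from NFATc proteins, which then enter the nucleus. DYRK kinases, GSK3 and casein kinase 1 put phosphates back, so that NFATc proteins leave the nucleus. NFAT5 is the family member that calcineurin does not regulate and that responds to osmotic stress, and RCAN1 is both an inhibitor of calcineurin and a target gene of NFATc proteins.

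RNA sequencing was carried out on sorted cells of C57bl/6 mice, 4 weeks old. The 5 populations were mature granulocytes, quiescent and cycling CD4+CD8+ thymocytes, and small and large pre-B cells. Small pre-B cells are the stage that follows the dividing large pre-B cells and leaves the cell cycle. The CKO pool had the genotype Dyrk1a -/-, Mx1-Cre+, and the control pool had Dyrk1a flox/flox without Mx1-Cre. Each population and genotype gave 1 library from 2 pooled mice, so there were 10 libraries and no replicate animals. The Mx1 promoter of the Cre transgene is induced by interferon and is active in many tissues, and the labels do not say whether or when it was induced.

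Dyrk1a, the gene named as deleted, stood at 34.4 to 44.7 FPKM in the CKO-labelled libraries and at 31.2 to 37.4 FPKM in the control libraries (FPKM count sequenced fragments per kilobase of a transcript, relative to the library). In each population Dyrk1a was higher in the CKO-labelled library, with log2 ratios from 0.05 in large pre-B cells to 0.43 in cycling thymocytes. The labels do not say which exons were removed, so the gene-level value neither bears out nor contradicts the label. Summed values were 360394 to 431868 FPKM in the lymphoid libraries, 1074258 FPKM in the CKO-labelled and 830006 FPKM in the control granulocytes. Sequencing depth is unknown. The summed granulocyte, thymocyte and pre-B marker lists were each highest in the populations they name, with exceptions among single genes. S100a9 is listed at 0 in both granulocyte libraries, and S100a8 and Ngp are listed at 0 in the control granulocytes. In the CKO-labelled granulocytes S100a8 stood at 246142 FPKM and Ngp at 39818 FPKM, and both values are part of the summed FPKM given above. Mpo and Elane, genes of immature granulocytes, stood at 209 and 207 FPKM in CKO-labelled and 489 and 458.1 FPKM in control granulocytes, and also at 159 and 115 FPKM in CKO-labelled and 365 and 251 FPKM in control large pre-B cells. All 9 measured granulocyte markers together summed to 467 and 617 FPKM in CKO-labelled and control small pre-B cells and to 439 and 833 FPKM in large ones, against 44.4 to 51.6 FPKM in thymocytes. Rag1, on the thymocyte list and also used by developing B cells, stood at 367 FPKM in CKO-labelled and 538 FPKM in control small pre-B cells. The granulocyte libraries also held proliferation transcripts, with the sum of Mki67, Top2a, Ccna2, Birc5 and Cdc6 at 399 FPKM in the CKO-labelled and 368 FPKM in the control library. That sum was 175 FPKM in CKO-labelled and 7.55 FPKM in control quiescent thymocytes, and 377 and 170 FPKM in the same order in small pre-B cells. In these bulk samples, fewer cells of a type and less RNA per cell cannot be told apart.

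**Figure D1:**
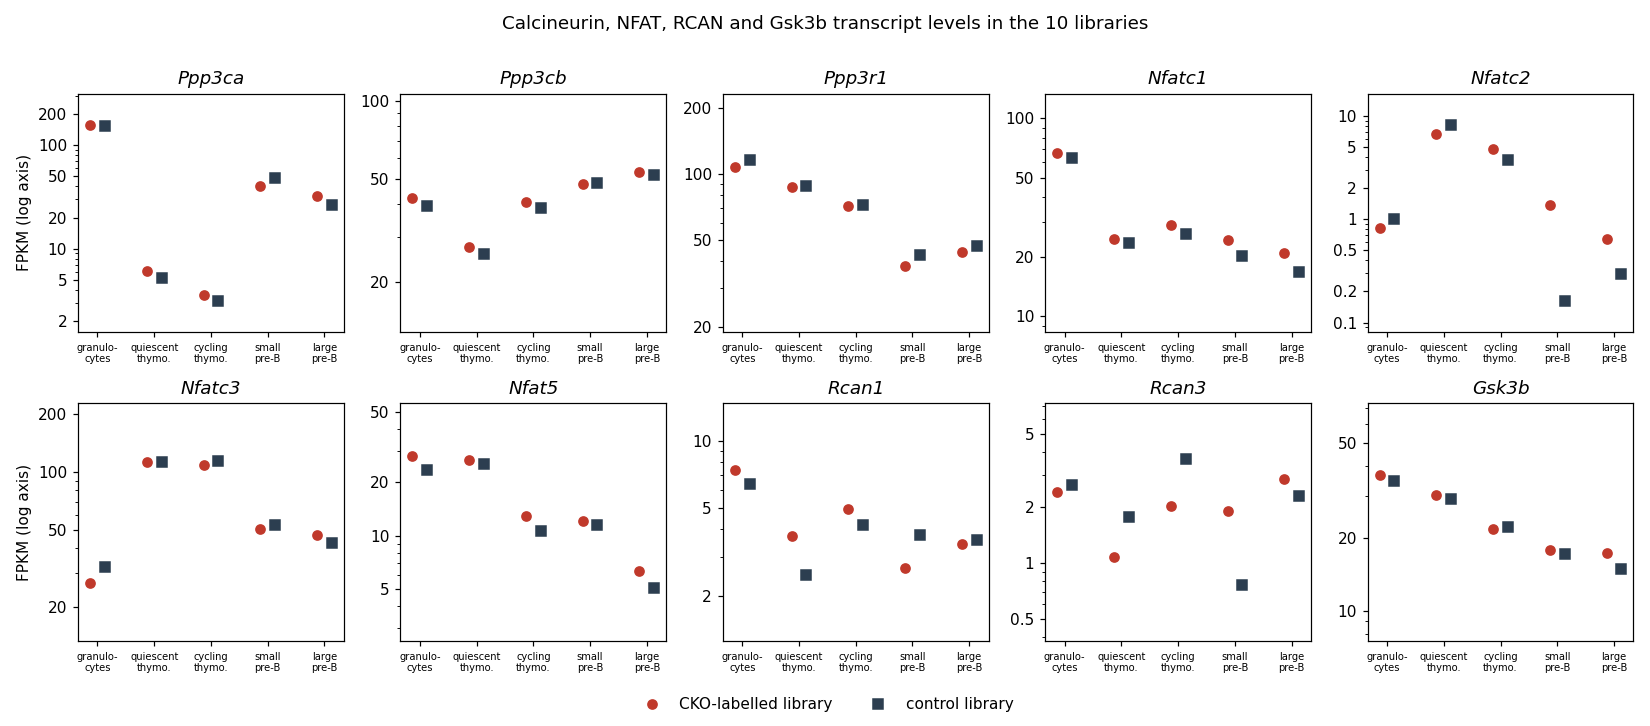
Transcript level of each of the 10 genes in each library, in FPKM on a log axis, with 1 point per library. Circles are CKO-labelled and squares control libraries of the 5 populations. Points of a population lie close together for most genes, while single libraries of different populations lie up to 50.8-fold apart for Ppp3ca.

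The catalytic subunit gene Ppp3ca (chromosome 3, 136670124 to 136937727, plus strand, mm10) differed most between populations. In the CKO-labelled and the control library, it stood at 158 and 155 FPKM in granulocytes, at 6.06 and 5.14 FPKM in quiescent thymocytes, at 3.58 and 3.12 FPKM in cycling thymocytes, at 40.5 and 48.0 FPKM in small pre-B cells and at 32.3 and 26.2 FPKM in large pre-B cells. Every population lay apart from its neighbours in the order granulocytes, small pre-B, large pre-B, quiescent and cycling thymocytes. The ratio of the highest to the lowest library was 50.8. Its spread over the libraries exceeded that of 93.9% of the genes tested. For Nfatc2 the ratio was 50.5, with the lowest library at 0.162 FPKM, and the spread exceeded that of 76.1% of the genes.

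Ppp3cb (chromosome 14, 20499364 to 20546573, minus strand), the other main catalytic subunit gene of lymphoid cells, was far more even. The CKO-labelled and control libraries held 42.3 and 39.3 FPKM in granulocytes, 27.3 and 25.8 FPKM in quiescent thymocytes, 40.7 and 38.7 FPKM in cycling thymocytes, 47.8 and 48.2 FPKM in small and 53.3 and 51.6 FPKM in large pre-B cells. Granulocytes and cycling thymocytes overlapped, and quiescent thymocytes were the lowest. The highest library exceeded the lowest by 2.06-fold, and only 14.2% of the genes tested had a smaller spread.

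The make-up of the catalytic pool of transcripts therefore differed by population. Ppp3ca made up 79.2% ± 0.66 of the summed FPKM of Ppp3ca, Ppp3cb and Ppp3cc in granulocytes (SD, n = 2 libraries of different genotype, as for the other shares). It made up 16.9% ± 1.36 in quiescent and 7.52% ± 0.59 in cycling thymocytes, and 39.3% ± 0.99 in small and 29.1% ± 3.18 in large pre-B cells. Ppp3cb was the main catalytic transcript of thymocytes, at 80.1% ± 0.39 in quiescent and 89.2% ± 1.45 in cycling cells. Ppp3cc, the remaining catalytic subunit gene, held 17.8% ± 2.75 in small and 18.7% ± 2.31 in large pre-B cells and under 5% in every thymocyte and granulocyte library. The catalytic sum was 198 FPKM in granulocytes, 33.2 and 44.5 FPKM in quiescent and cycling thymocytes, and 112 and 100.4 FPKM in small and large pre-B cells.

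**Figure D2:**
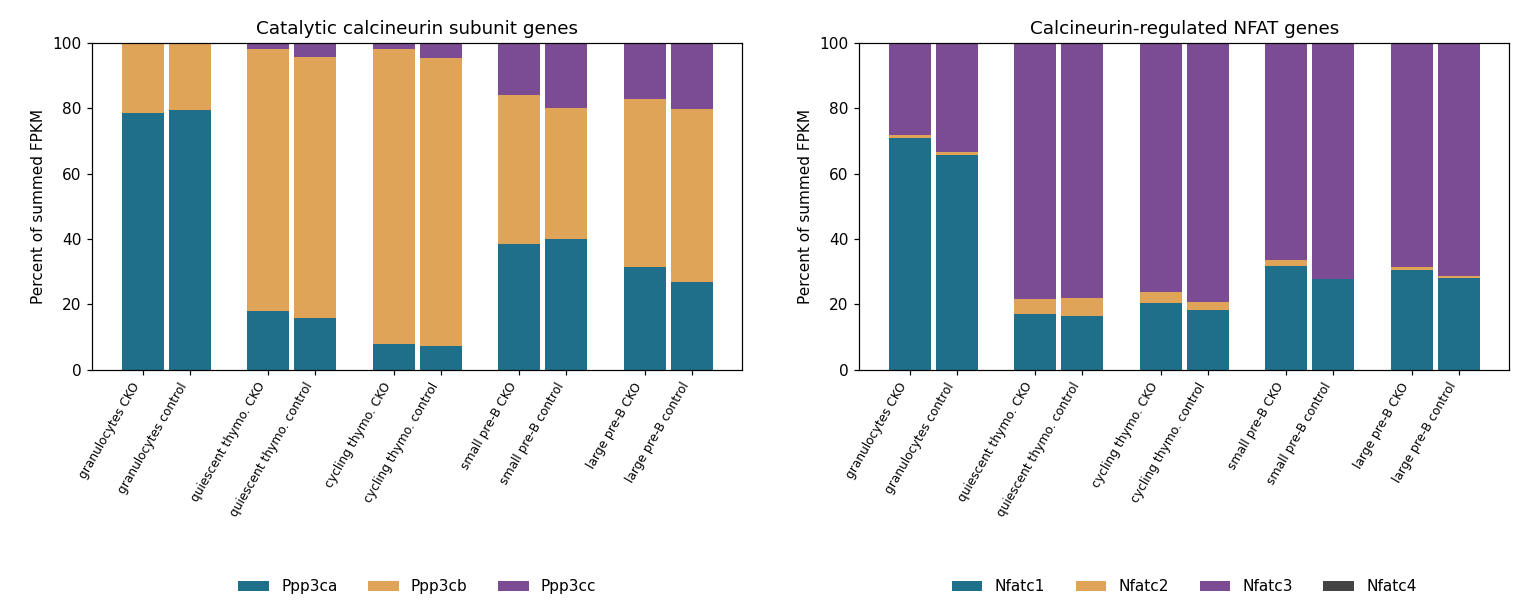
Share of each gene, in percent of the summed FPKM, among the catalytic calcineurin subunit genes (left) and the calcineurin-regulated NFAT genes (right), with 1 bar per library. Ppp3ca holds 79.2% of the catalytic sum in granulocytes and 7.52% in cycling thymocytes. Nfatc1 holds 68.3% of the NFATc sum in granulocytes and Nfatc3 78.1% in quiescent thymocytes.

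Ppp3r1 (chromosome 11, 17159263 to 17200375, plus strand) encodes calcineurin B, the regulatory subunit that every calcineurin enzyme needs. The CKO-labelled and the control library held 107 and 116 FPKM in granulocytes, 87.0 and 88.4 FPKM in quiescent thymocytes, 71.5 and 72.4 FPKM in cycling thymocytes, 37.9 and 42.5 FPKM in small and 43.8 and 46.8 FPKM in large pre-B cells. No populations overlapped. Set against the catalytic sum, the ratio of Ppp3r1 was 2.64 ± 0.12 in quiescent and 1.62 ± 0.05 in cycling thymocytes, against 0.358 ± 0.0049 in small and 0.452 ± 0.038 in large pre-B cells and 0.567 ± 0.047 in granulocytes. The regulatory subunit transcript thus exceeded the catalytic transcripts per length in thymocytes and not in the other populations. Exons of Ppp3r1 overlap those of Wdr92 on the same strand, which stood at 4.40 to 7.49 FPKM, so some reads of the pair cannot be assigned.

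Among the NFATc genes, Nfatc3 (chromosome 8, 106058840 to 106130537, plus strand), which is abundant in double-positive thymocytes, was the main transcript of every lymphoid library. In the CKO-labelled and the control library, it stood at 26.5 and 32.0 FPKM in granulocytes, at 113 and 113 FPKM in quiescent thymocytes, at 108 and 114 FPKM in cycling thymocytes, at 50.7 and 52.7 FPKM in small and at 47.0 and 42.5 FPKM in large pre-B cells. The thymocyte populations overlapped, and the other populations lay apart. Nfatc3 exons overlap those of Esrp2 on the opposite strand, which stood at 0.0101 to 5.44 FPKM, and the sources used here do not say whether counting used strand.

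Nfatc1 (chromosome 18, minus strand), which autoregulates in activated lymphocytes, led in granulocytes. It stood at 66.7 and 62.9 FPKM in CKO-labelled and control granulocytes, and its 8 lymphoid libraries ranged from 16.7 to 29.0 FPKM. In the CKO-labelled and the control library these were 24.7 and 23.6 FPKM in quiescent thymocytes, 29.0 and 26.2 FPKM in cycling thymocytes, 24.2 and 20.2 FPKM in small and 20.9 and 16.7 FPKM in large pre-B cells. Quiescent thymocytes overlapped with small pre-B cells, and small with large pre-B cells. Its share of the summed FPKM of Nfatc1 to Nfatc4 was 68.3% ± 3.80 in granulocytes, against 16.7% ± 0.54 and 19.3% ± 1.51 in quiescent and cycling thymocytes and 29.7% ± 2.87 and 29.3% ± 1.75 in small and large pre-B cells.

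Nfatc2 (chromosome 2, 168476410 to 168601657, minus strand), a main NFAT gene of mature T cells, was low throughout. CKO-labelled and control libraries held 0.815 and 1.01 FPKM in granulocytes, 6.66 and 8.21 FPKM in quiescent thymocytes, 4.82 and 3.75 FPKM in cycling thymocytes, 1.39 and 0.162 FPKM in small and 0.645 and 0.294 FPKM in large pre-B cells. Thymocytes lay above all other populations, which overlapped with their neighbours. Nfatc4 did not exceed 0.0178 FPKM in any library.

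Nfat5 (chromosome 8, 107293470 to 107379517, plus strand) followed another order. Its level in the CKO-labelled and the control library was 28.1 and 23.4 FPKM in granulocytes, 26.8 and 25.4 FPKM in quiescent thymocytes, 12.9 and 10.6 FPKM in cycling thymocytes, 12.1 and 11.5 FPKM in small and 6.28 and 5.06 FPKM in large pre-B cells. Granulocytes overlapped with quiescent thymocytes, and cycling thymocytes with small pre-B cells, while large pre-B cells were the lowest. Each quiescent lymphoid population thus stood above its cycling counterpart.

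Rcan1 (chromosome 16, 92391953 to 92470867, minus strand) stood at 7.43 FPKM in CKO-labelled and 6.39 FPKM in control granulocytes, above every lymphoid library. In the CKO-labelled and the control library, it stood at 3.72 and 2.49 FPKM in quiescent thymocytes, 4.91 and 4.19 FPKM in cycling thymocytes, 2.68 and 3.75 FPKM in small and 3.42 and 3.57 FPKM in large pre-B cells. Quiescent thymocytes and both pre-B populations overlapped with their neighbours in the order.

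Rcan3 (chromosome 4, 135412308 to 135433853, minus strand), a related gene whose protein also binds calcineurin, was the scarcer of the pair. The pair of CKO-labelled and control libraries held 2.42 and 2.64 FPKM in granulocytes, 1.08 and 1.77 FPKM in quiescent thymocytes, 2.03 and 3.66 FPKM in cycling thymocytes, 1.91 and 0.759 FPKM in small and 2.83 and 2.29 FPKM in large pre-B cells. Cycling thymocytes, large pre-B cells and granulocytes overlapped, as did quiescent thymocytes and small pre-B cells. Rcan2 did not exceed 0.433 FPKM in any library.

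Rcan1 is known to have a constitutive promoter and a downstream promoter that NFAT proteins act on, so the sequences of both are shown beside that of Rcan3. RefSeq gives Rcan1 starts at positions 92466169 and 92400078 of chromosome 16 on GRCm38.p6. The downstream start lies 66091 bases from the upstream one, and both lie in intron 1 of the longest annotated Rcan1 transcript, which starts further upstream. The 250 bases before each start follow, 5′ to 3′ on the minus strand, with the NFAT core letters GGAAA (or TTTCC, the same letters on the other strand) and the AP-1 letters TGANTCA in capitals.
Rcan1 upstream start, chr16:92466170-92466419: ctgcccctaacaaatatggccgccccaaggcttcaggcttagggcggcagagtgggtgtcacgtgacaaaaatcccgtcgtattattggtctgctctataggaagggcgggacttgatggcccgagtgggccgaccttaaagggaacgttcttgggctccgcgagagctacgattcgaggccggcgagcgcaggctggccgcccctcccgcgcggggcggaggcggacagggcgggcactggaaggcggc
Rcan1 downstream start, chr16:92400079-92400328: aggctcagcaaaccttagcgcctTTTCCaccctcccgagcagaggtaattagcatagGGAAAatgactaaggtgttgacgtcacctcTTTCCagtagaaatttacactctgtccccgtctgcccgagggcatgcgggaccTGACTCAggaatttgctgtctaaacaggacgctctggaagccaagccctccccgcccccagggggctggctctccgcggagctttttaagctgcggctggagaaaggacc
Rcan3, chr4:135433806-135434055: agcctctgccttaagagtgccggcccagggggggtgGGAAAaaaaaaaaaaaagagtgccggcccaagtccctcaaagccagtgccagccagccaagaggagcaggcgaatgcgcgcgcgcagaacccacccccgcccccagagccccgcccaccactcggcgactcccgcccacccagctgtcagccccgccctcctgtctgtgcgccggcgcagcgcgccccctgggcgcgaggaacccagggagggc
The downstream Rcan1 window held 3 GGAAA on either strand and 1 TGANTCA, and the upstream window held neither. At least 3 GGAAA were found in 6.39% and TGANTCA in 6.75% of the 32851 RefSeq promoter windows of the same length, and at least 1 GGAAA in 55.6%. The Rcan3 window held 1 GGAAA, and the windows of the other members examined held 3 and 1 (the Nfatc2 starts), 3 (Ppp3cb), 2 (Nfat5), 1 and 0 (the Nfatc3 starts), 0 (Ppp3r1) and 0 (Gsk3b), with no TGANTCA in these. Windows of Ppp3ca and Nfatc1 were not analysed here. The motifs do not overlap with each other. The gene-level Rcan1 value sums both starts, so the FPKM above do not say which was used.

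Gsk3b (chromosome 16, 38089001 to 38246084, plus strand) completes the set. The level in the CKO-labelled and the control library was 36.8 and 34.8 FPKM in granulocytes, 30.2 and 29.3 FPKM in quiescent thymocytes, 21.9 and 22.3 FPKM in cycling thymocytes, 17.96 and 17.2 FPKM in small and 17.4 and 14.9 FPKM in large pre-B cells. Only the pre-B populations overlapped.

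Thymocytes were compared with pre-B cells in a limma fit of log2(FPKM + 1) over all 10 libraries, with terms for population and genotype. Called means a Benjamini-Hochberg adjusted p under 0.05. The design text gives 1 pool of 2 mice per genotype for all populations, so these p-values measure how alike libraries differ and not the spread between animals. Of the 10 genes, 6 were higher and 2 lower in thymocytes, where 69.7% of all genes tested were called (33.2% higher and 36.5% lower). A share of 8 in 10 is thus near the background.

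Of the calcineurin genes, Ppp3r1 rose by 0.88 on the log2 scale in thymocytes (SE 0.058, limma adjusted p = 2.13e-05), whereas Ppp3ca fell by 2.78 (SE 0.099, limma adjusted p = 1.79e-06) and Ppp3cb fell by 0.61 (SE 0.058, limma adjusted p = 1.04e-04). The 4 thymocyte libraries did not overlap with the 4 pre-B libraries for any of these genes. The NFAT genes were all higher in thymocytes. Nfatc2 rose by 2.09 (SE 0.21, limma adjusted p = 1.46e-04) and Nfatc3 rose by 1.20 (SE 0.077, limma adjusted p = 1.95e-05), with libraries apart. Nfat5 rose by 1.01 (limma adjusted p = 3.74e-05) and Nfatc1 by 0.33 (SE 0.071, limma adjusted p = 0.0050), with overlapping libraries. The Nfatc1 call was lost without the cycling thymocyte pair and without the large pre-B pair. Gsk3b rose by 0.58 (limma adjusted p = 2.78e-04). Rcan1 (0.13, limma adjusted p = 0.44) and Rcan3 (0.08, limma adjusted p = 0.75) did not pass.

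The other genes of the pathway were also called in both directions between these lineages, where 69.7% of all genes tested were called. Among 9 tested calcineurin subunit, anchor and calmodulin genes, 1 rose and 4 fell in thymocytes. The 1 that rose was Akap1 (1.43), which encodes a mitochondrial anchor protein, and the largest fall was that of Ppp3cc (−3.24). Of 14 genes of calcium entry and release, 8 rose and 5 fell. Orai1, the pore of the store-operated calcium channel, rose by 2.77 in thymocytes, Itpr2, an inositol trisphosphate receptor gene, rose by 1.86, and Atp2b4, a plasma membrane calcium pump gene, fell by 2.16. Plcg2, the phospholipase C gene used by the B cell receptor, fell by 5.59, with 0.0967 to 1.003 FPKM in thymocytes against 60.4 to 75.6 FPKM in pre-B cells. Of 13 NFAT kinase genes, 8 rose and 1 fell, with Dyrk1b (1.32), Csnk1d (1.15) and Csnk1e (1.11) higher and Dyrk2 (−0.73) lower. Of 17 partner and target genes, 11 rose and 3 fell. They included Nr4a1 (6.93) and Cd5 (5.64), genes that T cell receptor signals induce, and the transcription factor genes Mef2c (−4.71) and Irf4 (−3.77). Of 4 tested osmotic target genes of NFAT5, the amino acid transporter gene Slc38a2 (2.27) and the taurine transporter gene Slc6a6 (1.48) rose. All values are log2 differences called by limma.

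In granulocytes against the 4 lymphoid populations, in the same fit, 6 of the 10 genes were higher and 2 lower, where 80.8% of all genes tested were called (41.3% higher and 39.5% lower). The members' share is thus again that of the background. Ppp3ca rose by 3.49 in granulocytes (SE 0.11, limma adjusted p = 2.68e-07), an 11.2-fold difference, and Nfatc1 rose by 1.46 (SE 0.079, limma adjusted p = 3.06e-06). Both granulocyte libraries lay above all 8 lymphoid libraries for these genes. Ppp3r1 (0.93), Gsk3b (0.76) and Rcan1 (0.80, SE 0.16, limma adjusted p = 0.00235) rose with libraries apart, and Nfat5 rose by 1.03 with overlapping libraries. Nfatc3 fell by 1.31 (limma adjusted p = 8.15e-06), and both granulocyte libraries lay below every lymphoid library. Nfatc2 fell by 0.75 (SE 0.24, limma adjusted p = 0.0213) with overlap, and its call was lost with a pseudocount of 0.1 and without either thymocyte pair. Ppp3cb (0.01, limma adjusted p = 0.85) and Rcan3 (0.27, limma adjusted p = 0.33) did not pass. Rescaling by median ratios shifted this comparison by −0.12, which turned Ppp3cb to −0.11 and left the 8 calls. The purity of the granulocyte libraries, whose proliferation transcripts are given above, was not tested as a part of these differences.

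The remaining pathway genes were also called in both directions, where 80.8% of all genes tested were called (41.3% higher and 39.5% lower). A high count of calls is thus not particular to these lists. Of 14 calcium genes, 8 rose and 4 fell, with Plcg2 (4.31), Orai1 (2.75) and Plcg1 (−3.92), the phospholipase C gene of T cell receptor signalling, at the ends, and Itpr3 at −3.57. Of 9 calcineurin subunit, anchor and calmodulin genes, 3 rose and 4 fell, among them Fkbp1a (−2.84), which encodes the binding protein of the calcineurin inhibitor FK506, Ppp3cc (−2.36) and Akap1 (−2.29). Of 13 NFAT kinase genes, 3 rose and 8 fell, with Mapk14 (2.42), the p38 kinase gene, higher and Dyrk2 (−2.78) lower. Of 17 partner and target genes, 5 rose and 11 fell, including the cytokine gene Tnf (4.04) and the transcription factor gene Irf4 (−3.90). The osmotic target genes Slc6a12 (3.08) and Slc6a6 (2.58) rose, and Akr1b3 (−2.91), an aldose reductase gene, and Slc38a2 (−0.84) fell. These values are log2 differences called by limma, in granulocytes minus lymphoid populations.

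The quiescent populations were set against the cycling ones in a second limma fit, over the 8 lymphoid libraries, that blocks on lineage and genotype. In quiescent against cycling thymocytes, 3 of the 10 genes were higher and 2 lower, where 44.9% of all genes tested were called (25.2% higher and 19.7% lower). In small against large pre-B cells, 2 were higher and 1 lower, where 47.4% were called (25.6% higher and 21.8% lower). The thymocyte share is near its background and the pre-B share is below it.

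Nfat5 had the largest difference of the set. It rose by 1.09 in quiescent thymocytes (SE 0.12, limma adjusted p = 0.0065) and by 0.95 in small pre-B cells (SE 0.12, limma adjusted p = 0.00498), in 2 of 2 pairs of libraries each, and the libraries lay apart. Ppp3ca rose by 0.60 in quiescent thymocytes (SE 0.16, limma adjusted p = 0.028) and by 0.58 in small pre-B cells (SE 0.16, limma adjusted p = 0.0296), again in 2 of 2 pairs each. Rcan3 fell by 0.65 in both lineages (SE 0.17 each, limma adjusted p = 0.0276 in thymocytes and 0.0264 in pre-B cells). Its levels were under 4 FPKM, and without a filter on low values neither Rcan3 nor Ppp3ca was called in either lineage. With lineage and genotype as separate terms, Rcan3 was called in neither. Ppp3cb fell by 0.56 in quiescent thymocytes (SE 0.094, limma adjusted p = 0.0095), and Gsk3b rose by 0.41 (SE 0.11, limma adjusted p = 0.027). In small pre-B cells their differences were −0.13 and 0.12 and did not pass. In thymocytes the Ppp3ca call was also lost with a pseudocount of 5, and the Gsk3b call without either pre-B pair.

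The remaining 5 genes passed in neither lineage. In thymocytes these were Nfatc2 (0.68, limma adjusted p = 0.0572), Ppp3r1 (0.28, limma adjusted p = 0.0564), Rcan1 (−0.45, limma adjusted p = 0.0541), Nfatc1 (−0.18) and Nfatc3 (0.02). Of these, Nfatc2 and Rcan1 were called in thymocytes with a pseudocount of 5, and Ppp3r1 and Rcan1 after rescaling by median ratios. In pre-B cells the differences ran from −0.17 (Ppp3r1) to 0.23 (Nfatc1). The calls rest on few libraries. Without the control pair of thymocytes no gene of the set was called in thymocytes, and without the CKO pair Ppp3cb and Nfat5 were called. In pre-B cells no gene was called without the control pair, and Nfat5 alone without the CKO pair. The proliferation sum shows that quiescent CKO-labelled thymocytes and both small pre-B libraries held cycling transcripts, and Mpo and Elane were higher in large than in small pre-B cells, where they stood at 4.57 and 3.72 FPKM in the CKO-labelled and 6.48 and 6.86 FPKM in the control library. The part of either in these differences was not tested.

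**Figure D3:**
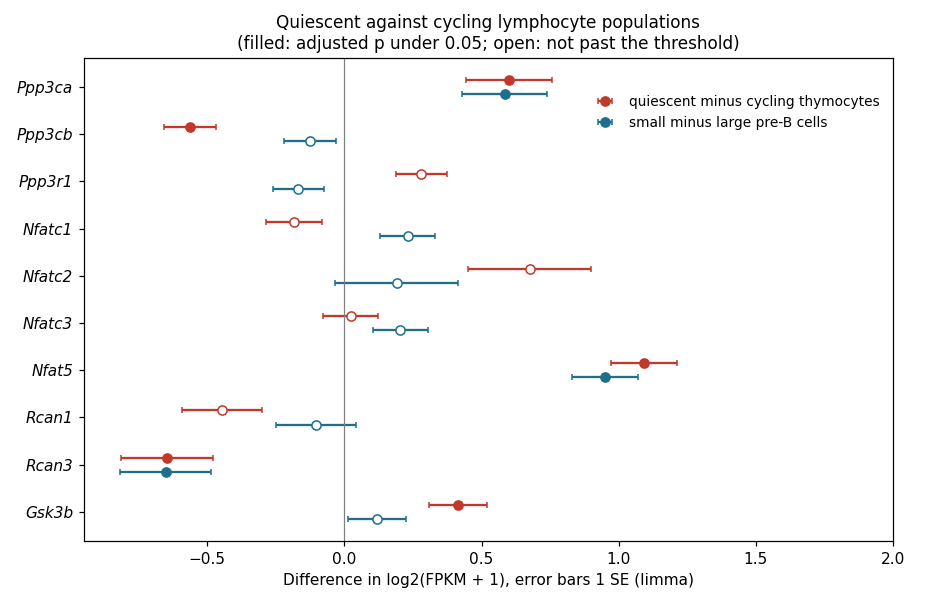
Difference in log2(FPKM + 1) between quiescent and cycling thymocytes and between small and large pre-B cells for each of the 10 genes, with 1 SE of the limma fit as error bars. Filled points passed an adjusted p of 0.05. Nfat5 lies at 1.09 and 0.95 and Rcan3 at −0.65 in both lineages.

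The difference between the lineages was itself tested. Of the 10 genes, 0 were called by limma, where 6.84% of all genes tested were. An unadjusted limma p under 0.05 was found for 3 (Nfatc1, Ppp3cb and Ppp3r1). It was found for 3136 of all 11126 genes tested, which is a similar share. A call in thymocytes that is missing in pre-B cells is therefore not shown to differ for any of the 10.

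Around these genes, several kinase and calcium channel genes were also called higher in the quiescent populations. Among all genes tested, 25.2% were called higher and 19.7% lower in quiescent thymocytes, and 25.6% and 21.8% in small pre-B cells. Whether the lists below depart from these shares was not tested. Of 13 NFAT kinase genes, 6 rose and 1 fell in quiescent thymocytes, and 4 rose and 0 fell in small pre-B cells. Dyrk1b, a kinase of quiescent cells, rose by 1.12 in quiescent thymocytes and by 1.43 in small pre-B cells, Csnk1e, a casein kinase gene, by 0.60 and 1.03, and Mapk9, a JNK gene, by 0.62 and 0.56. Dyrk2 rose by 0.71 in quiescent thymocytes. Of 14 calcium genes, 7 rose and 0 fell in quiescent thymocytes, with Plcg1 (1.25), Itpr1 (1.20), Orai2 (1.13) and Stim2 (0.64) ahead. In small pre-B cells 5 rose and 3 fell, with Orai2 (1.51) and Itpr2 (1.09) higher and Atp2b4 (−0.82) lower. All of these are log2 differences called by limma, as are those that follow.

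Of 9 tested genes of calcineurin subunits, anchors and calmodulins, 0 rose and 2 fell in quiescent thymocytes, namely Ppia (−1.60), which encodes cyclophilin A and has many processed pseudogenes that can share its reads, and Calm3 (−1.24). In small pre-B cells 0 rose and 5 fell, including Akap1 (−1.45), Ppia (−1.13), Calm2 (−0.94) and Fkbp1a (−0.89). Of 17 partner and target genes, 5 rose and 1 fell in quiescent thymocytes, with Mef2d (1.21), Cd5 (1.17), Maf (0.95) and Cd69 (0.77) the largest. In small pre-B cells 9 rose and 1 fell, with Cd69 (2.01) and the AP-1 genes Jund (1.95), Jun (1.59) and Junb (1.57) the largest. Of 3 tested osmotic target genes, Slc6a6 (0.82) and Slc38a2 (0.44) rose in quiescent thymocytes and Akr1b3 (−0.45) fell in small pre-B cells.

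CKO-labelled libraries were then compared with their controls over the 5 populations. None of the 10 genes was called by limma, where 0.0512% of all genes tested were (6 of 11715, with 1970 at an unadjusted p under 0.05), and 2 had an unadjusted p under 0.05. These were Nfatc1, with a difference of 0.17 (SE 0.063, limma adjusted p = 0.27, higher in 5 of 5 populations), and Nfat5, with 0.18 (SE 0.068, limma adjusted p = 0.27, higher in 5 of 5). Ppp3r1 was lower in 5 of 5 populations, by a difference of −0.08 (limma adjusted p = 0.43). The others lay between −0.05 (Nfatc3) and 0.25 (Nfatc2), none past the threshold. Of the 57 other pathway genes tested, 0 were called and 9 had an unadjusted p under 0.05. Among the 6 genes called, 4 lie on the Y chromosome, all higher in the CKO-labelled libraries, so the sex make-up of the pools and the genotype cannot be told apart.

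Whether the CKO difference was unlike in quiescent and cycling lymphoid populations was tested as an interaction. Of the 10 genes, 0 were called by limma and 0 had an unadjusted p under 0.05, where 0.018% of all genes tested were called (2 of 11126, with 745 at an unadjusted p under 0.05).

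Within each population there is 1 library per genotype and hence no test. A gene whose higher library reached 5 FPKM was considered, and counted as different from a 2-fold ratio on the log2(FPKM + 1) scale. Of 36 pairs of gene and population with enough FPKM, 0 differed. Rcan3 was considered in no population, Rcan1 only in granulocytes, Nfatc2 only in quiescent thymocytes, and Ppp3ca in all but cycling thymocytes. In the same libraries 2.33% of all genes differed in granulocytes, 5.26% in quiescent and 0.954% in cycling thymocytes, 6.3% in small and 1.84% in large pre-B cells. The log2 ratios of the 10 genes ran from −0.62 (Rcan3 in cycling thymocytes, 2.03 against 3.66 FPKM) to 1.04 (Nfatc2 in small pre-B cells, 1.39 against 0.162 FPKM), both below 5 FPKM. In the CKO-labelled small pre-B library the summed natural killer and innate cell markers stood at 96.7 FPKM, against 11.6 FPKM in control, with all 5 markers at 1 FPKM or more in both, and the plasmacytoid dendritic cell markers at 388 FPKM, against 116 FPKM. In large pre-B cells the natural killer and innate sum was 112 FPKM in the CKO-labelled and 90.2 FPKM in the control library. The plasmacytoid sum there was 135 and 122 FPKM in the same order, and Nfatc2 stood at 0.645 and 0.294 FPKM. The part of these markers in the Nfatc2 value was not tested.

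**Figure D4:**
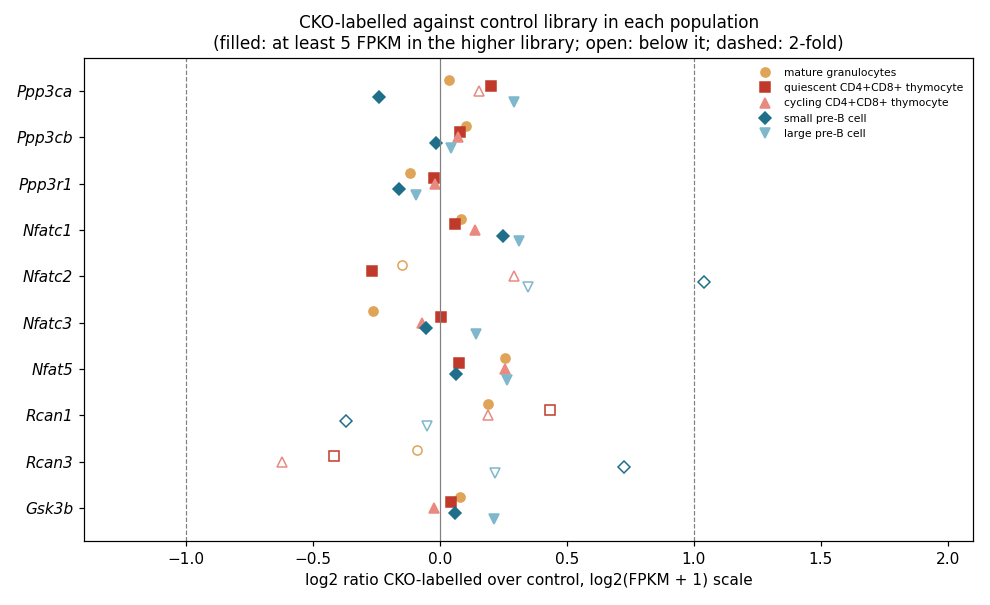
log2 ratio of the CKO-labelled to the control library on the log2(FPKM + 1) scale, for each of the 10 genes in each population, with 1 point per pair of libraries and no error bars. Open points are below 5 FPKM in the higher library, and dashed lines mark 2-fold. Only the open point of Nfatc2 in small pre-B cells, at 1.04, lies beyond the lines.

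Some partner and target genes of NFAT passed the 2-fold rule. In quiescent thymocytes 7 of 14 considered partner and target genes were at least 2-fold higher in the CKO-labelled library and 0 lower, where 3.66% of all genes were higher. The list was chosen with earlier results of these data known, and each side is 1 library. Setting its share against that of all genes is therefore a description and not a test. Fos stood at 106 FPKM in CKO-labelled and 29.2 FPKM in control cells, Jun at 244 and 64.8 FPKM, Nr4a1 at 975 and 309 FPKM and Cd69 at 31.0 and 14.3 FPKM, and Irf4, Egr2 and Tnf were the others. In cycling thymocytes 2 of 14 were higher, where 0.374% of all genes were, namely Jun (209 and 97.8 FPKM) and Egr2 (8.48 and 3.63 FPKM). In small pre-B cells Maf was higher (5.34 and 2.08 FPKM) and Fos lower (72.0 and 174 FPKM), 1 of 11 each, where 4.52% of all genes were higher and 1.78% lower. Large pre-B cells and granulocytes had none.

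Among the kinase genes, Dyrk3 was at least 2-fold higher in CKO-labelled quiescent thymocytes (9.12 against 1.42 FPKM) and small pre-B cells (6.20 against 1.51 FPKM). It was 1 of 13 considered in each, where 5.26% and 6.3% of all genes differed in either direction. Among calcium genes, Itpr1 was lower in quiescent thymocytes (8.57 against 21.3 FPKM), and Atp2b4 was higher in small (15.7 against 1.28 FPKM) and large pre-B cells (19.4 against 4.83 FPKM). These were 1 of 11 considered in quiescent thymocytes, 1 of 12 in small and 1 of 14 in large pre-B cells. In large pre-B cells 1.84% of all genes differed. Of the calcineurin subunit, anchor and calmodulin genes and the osmotic target genes, none that reached 5 FPKM in the higher library passed 2-fold on the log2(FPKM + 1) scale. Genes below that level, such as Ppp3cc in thymocytes, were not considered. These ratios have no replicate check, and those in quiescent thymocytes and small pre-B cells stand beside the proliferation sums given above, whose part in them was not tested.

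Correlations of the members' profiles across the 10 libraries are given as descriptions because the libraries share populations. Pearson's r of log2(FPKM + 1) was 0.95 between Ppp3r1 and Gsk3b, 0.92 between Nfat5 and Gsk3b, 0.85 between Nfatc2 and Nfatc3 and 0.84 between Nfatc1 and Rcan1 (n = 10 libraries each). It was −0.97 between Ppp3ca and Nfatc3 and −0.87 between Ppp3cb and Nfatc2, and Rcan3 reached at most 0.30 with any member, Nfatc1. Of 10421 genes ranked, those most like Ppp3ca were Irf2, Trim30a and Tnfrsf14 (r 0.990 to 0.995), those most like Nfatc3 were Ly6k, Siah2 and Mr1 (r 0.991 to 0.992), and those most like Nfat5 were Fchsd1, Zmym2 and Avl9 (r 0.986 to 0.997). Those most like Nfatc1 were Glipr2, Tbc1d10b and Bhlhe40 (r 0.982 to 0.984), and those most like Nfatc2 were Il12rb1, Slc23a2 and Impact (r 0.980 to 0.987). Values for Rcan1 (Dhx29, r = 0.964) and Rcan3 (Cln6, r = 0.876) were lower. The gene at rank 101 stood at r 0.970 for Ppp3ca, 0.870 for Rcan1 and 0.721 for Rcan3.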

How the data were processed

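RNA libraries were made from sorted cells with RNeasy extraction and Illumina protocols, per the labels' protocols. The submitters' processing notes name TopHat2 2.0.8b, Cuffdiff 2.1.1 and the build mm10 and give no further detail. The deposited values were taken as FPKM, a unit inferred from those tools and the values, since no label names it. Depth per library is unknown, so no counting interval is given, and FPKM are relative within a library. Each table held 23179 rows, of which 201 repeated another row exactly. Of 47 symbols on several rows, only the row of highest mean entered.

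The deposited FPKM were converted here to log2(FPKM + 1), which understates changes of low genes, and fitted with limma-trend from limma 3.58.1 under R 4.3.3, two-sided. Genes reaching 1 FPKM in no fewer than 2 fitted libraries entered, with Benjamini-Hochberg adjustment over all genes tested. All 10 members passed that filter. Residual degrees of freedom were 4 for the fit over 10 libraries and 2 for each fit over the 8 lymphoid libraries. The fits were tested on simulated data with known changes. The members are always named, and of each pathway list at most the 4 called genes with the largest change per comparison, plus those past the 2-fold rule. A gene that this rule would name is not reported here. The members and lists were chosen with earlier results of these data known. Of 5 osmotic target genes, 4 were found in the tables. Positions are from GENCODE vM21 on mm10 and promoter sequences from RefSeq on GRCm38.p6. Alternatives changed the filter, the pseudocount (0.1 or 5), the scaling (median ratios), the treatment of repeated symbols and the blocks, or left out a pair of libraries. Tables and plots were made in Python 3.11.15 (pandas 2.3.3; matplotlib 3.10.9).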

Additional observations from a re-analysis of the deposited data

Results flagged for a closer look

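Among 56 pathway genes tested outside the members, 10 had a difference between quiescent and cycling cells that was not the same in both lineages. This was called by a test of that difference between thymocytes and pre-B cells itself, where 6.84% of all genes tested were called. Values are the state effect in thymocytes minus that in pre-B cells on the log2(FPKM + 1) scale, with limma adjusted p. None of the 10 is a member of the calcineurin, NFAT and RCAN set. Positive values were found for Tox (1.799, adjusted p = 0.0401), Cd5 (1.39, 0.0226), Akap1 (1.38, 0.0415), Calm2 (1.02, 0.0273), Orai1 (0.88, 0.0415), Stim2 (0.88, 0.0460) and Fkbp1a (0.79, 0.0448). Negative values were found for the AP-1 genes Fos (−1.86, 0.0477), Jun (−1.78, 0.0394) and Jund (−1.59, 0.0220). Cd5 lies outside the naming rule and was named after its values were seen. The count of all genes called in this comparison, 761, depends on the settings and is 0 without a filter on low values. It is 1 with lineage and genotype as separate terms, so at most 1 of these 10 calls can hold there.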

How the results depend on the processing

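No pairing of replicate animals was possible because the labels give no replicate numbers, with 1 library per population and genotype. The blocks are populations, or lineage and genotype together in the fit of quiescent against cycling cells, and not replicates. That fit compares the quiescent and cycling libraries of the same lineage and genotype. With lineage in place of population, CKO against control gave 5 genes and 0 members (6 and 0 as reported). No p-value here measures the spread between animals, and the depth is unknown. All 8 calls in thymocytes against pre-B cells held under the pseudocounts, filters, rescaling and summed rows.

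With 1 pair of libraries left out at a time, the number of genes called was 1 to 4 over 5 populations for CKO against control (6 with all), 4 to 3795 for quiescent against cycling thymocytes (4997 with all), 3 to 4972 for small against large pre-B cells (5277 with all), 0 to 359 for the difference between lineages (761 with all) and 0 to 198 for the CKO difference by state (2 with all). The lowest values, 4 and 3, came without the control pair of the lineage itself. Members called were then 0 to 4 for thymocyte state (5 with all) and 0 to 3 for pre-B state (3 with all). Without a filter on low values they were 3 and 1, and thymocyte state gave 6 with a pseudocount of 5 and 7 after rescaling.

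CKO against control over 5 populations gave 2 genes with a pseudocount of 5 and 1 without a filter. The difference between lineages gave 361 with a pseudocount of 0.1, 0 without a filter and 1 with lineage and genotype as separate terms. The CKO difference by state gave 1 with a pseudocount of 0.1, 1 without a filter and 1 with a filter of 5 FPKM. Within populations a pseudocount of 5 gave 88 genes past 2-fold in granulocytes (184 as reported), 241 in quiescent thymocytes (413), 37 in cycling thymocytes (74), 209 in small pre-B cells (517) and 66 in large pre-B cells (146). A minimum of 1 FPKM gave 115 in cycling thymocytes, and in small pre-B cells it let Nfatc2 pass.

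The members whose direction turned in these comparisons were not called with all libraries. For the difference between lineages, direction turned in 6 combinations of member and alternative, and for the CKO difference by state in 15. No member was called in either. The turns in the other comparisons follow. The CKO difference of Nfatc3 was 0.0057 in the 4 lymphoid populations alone, and Ppp3cb in granulocytes was −0.11 after rescaling. With pairs left out, the CKO differences ranged from −0.10 to 0.0057 for Nfatc3, −0.0099 to 0.19 for Rcan1 and −0.23 to 0.11 for Rcan3. Thymocytes minus pre-B cells gave −0.095 to 0.35 for Rcan1 and −0.24 to 0.41 for Rcan3. Granulocytes minus lymphoid cells gave −0.18 to 0.14 for Ppp3cb, which passed at −0.18 without the quiescent thymocyte pair (limma adjusted p = 0.0438, with 0.0438 to 0.94 over its alternatives). Quiescent minus cycling thymocytes gave −0.013 to 0.058 for Nfatc3, and small minus large pre-B cells gave −0.16 to 0.54 for Nfatc2 and −0.27 to 0.056 for Rcan1. The cause was not tested.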
